A study of Homo sapiens with 4 samples.

Results

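Levels of 6 transcription factor genes of the SOX family were measured in the melanoma line MelJuSo, established from human skin melanoma, following brief treatment with topoisomerase II drugs. Topoisomerase II is the enzyme that passes a DNA duplex through another. The genes are SOX2, SOX4, SOX5, SOX9, SOX11 and SOX12, taken by gene symbol as every probe that the platform annotation assigns to them. They hold 10 of the 27578 probes with 1 gene symbol, and 6 of 18665 genes. The series has 4 arrays, 1 per group. These hold RNA of cultures treated with 10 µM aclarubicin, with 10 µM etoposide plus 10 µM aclarubicin, or with 9 µM doxorubicin, and of an untreated culture. Each drug was applied for 2 h, and RNA was taken 1 day after its removal. All groups share the cell line, and the labels give no time in culture for the untreated cells. The members were proposed with earlier results of these arrays in view, so their values are given as a description. Because no group was repeated, no difference has a replicate check or a test, and each one compares 2 arrays. In such bulk RNA, fewer cells expressing a gene and less of its RNA per cell cannot be told apart.

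SOX proteins carry a high-mobility-group (HMG) domain that binds the minor groove of DNA and bends it, and they usually act together with a partner factor. SOX2 belongs to group B1 and keeps stem and neural progenitor cells undifferentiated. SOX4, SOX11 and SOX12 form group C, active in progenitors of neurons and mesenchyme. SOX5 belongs to group D, which lacks an activation domain and assists SOX9 in cartilage. SOX9 belongs to group E with SOX10, the factor that maintains the melanocyte lineage. In melanocytes and melanoma SOX9 and SOX10 have been described as opposing each other. SOX2, SOX4, SOX11 and SOX12 are single-exon genes, whereas SOX5 and SOX9 carry introns.

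The 3 members that were higher on both arrays with aclarubicin are shown by the 250 bases upstream of their start. The sequences are RefSeq's on GRCh38.p14, 5′ to 3′ on the gene's strand, and capitals mark CCAAT boxes (CCAAT, or ATTGG where the box lies on the opposite strand). The windows are chr3:181711675-181711924 on the plus strand for SOX2, chr6:21593501-21593750 on the plus strand for SOX4 and chr20:325302-325551 on the plus strand for SOX12.
SOX2: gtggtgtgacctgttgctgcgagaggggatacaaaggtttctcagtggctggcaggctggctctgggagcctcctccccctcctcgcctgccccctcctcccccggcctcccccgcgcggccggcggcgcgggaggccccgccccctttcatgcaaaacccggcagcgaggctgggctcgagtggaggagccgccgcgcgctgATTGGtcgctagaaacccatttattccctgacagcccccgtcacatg
SOX4: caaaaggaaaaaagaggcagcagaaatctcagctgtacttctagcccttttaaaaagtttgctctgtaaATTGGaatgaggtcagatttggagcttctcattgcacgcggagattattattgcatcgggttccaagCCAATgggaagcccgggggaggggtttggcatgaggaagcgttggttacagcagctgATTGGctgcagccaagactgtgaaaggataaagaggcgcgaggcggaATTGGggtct
SOX12: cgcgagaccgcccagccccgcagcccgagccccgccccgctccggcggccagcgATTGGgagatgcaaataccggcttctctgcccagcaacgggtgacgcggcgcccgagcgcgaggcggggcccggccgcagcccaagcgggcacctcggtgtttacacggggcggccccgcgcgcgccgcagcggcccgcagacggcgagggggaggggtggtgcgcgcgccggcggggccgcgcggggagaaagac
Of the 6 members 4 were matched by symbol, these 3 and SOX5, leaving SOX9 and SOX11. SOX2 and SOX12 had 1 CCAAT box each and SOX4 had 4, whereas the SOX5 window had 0. Of 35116 promoter windows of the same length, 32.0% held a CCAAT box on either strand. The box of SOX2 began 47 bases before the start and that of SOX12 196 bases before it. In SOX4 the boxes began 181, 114, 57 and 10 bases before the start. SOX12 also held the octamer ATGCAAAT, which does not overlap its CCAAT box and occurred on either strand in 1.63% of windows. A GC box (GGGCGG, both strands) was found 3 times for SOX12, 1 time each for SOX2 and SOX5, and 0 times for SOX4, against 42.6% of windows with at least 1. GC content was 68.8% for SOX2, 48.8% for SOX4, 65.6% for SOX5 and 79.2% for SOX12, where the median window had 58%. The letters AACAATG, a SOX binding motif, occurred on either strand in 2.87% of windows and were found 1 time for SOX5 and 0 times for the other 3. The motifs TATAAA (both strands) and TGACGTCA were not among the letters of any of the 4 windows, and these matches are a description of sequence only.

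Detection was read from the deposited detection p-value, with a probe detected at a p-value under 0.01. Of the 6 members, 4 passed this filter on at least 1 array: SOX2, SOX4, SOX9 and SOX12, through 5 of the 10 probes. SOX5 (3 probes) and SOX11 (2 probes) were not detected on any array. Their detection p-values lay between 0.169 and 0.772 for SOX5 and between 0.20 and 0.988 for SOX11, so no difference was computed for them. The arrays differed in how much they detected: 9864 of 48803 probes after aclarubicin, 9128 after etoposide plus aclarubicin, 14773 after doxorubicin and 13521 in untreated cells. Levels are therefore given on 2 scales. The first is the non-normalized signal, and the second is the log2 level after background correction and quantile normalization, which gives every array the same distribution. Without scaling between arrays the median gene differed from untreated cells by -0.85 log2 after aclarubicin, -1.13 after the combination and 0.07 after doxorubicin. On the quantile scale these medians were -0.08, -0.13 and -0.0033. Melanocyte markers were only partly present in this line: SOX10, MITF, PMEL, TYRP1, S100A1 and MIA were detected on at least 1 array, and MLANA, TYR and S100B on none. Of the 9 listed markers on the array, 6 were detected after aclarubicin, 5 after the combination, 6 after doxorubicin and 6 in untreated cells, with summed signals of 4337, 3346, 2890 and 4936. Of other cell types, 1 of 5 keratinocyte markers was detected on each array, 1 of 6 fibroblast markers, 1 or 2 of 4 endothelial markers and 0 or 1 of 3 leukocyte markers. KRT5, KRT14, COL1A1, COL3A1, CDH5 and PTPRC were not detected on any array. KRT10 and PECAM1 were detected on all 4 arrays, LUM on 3, and PDGFRB and VWF after doxorubicin only. The fibroblast marker LUM was 2.19-fold higher after aclarubicin and 2.60-fold higher after the combination, and the endothelial marker PECAM1 was 2.40-fold higher after the combination, with unscaled differences of 0.25, 0.19 and 0.19 log2. After doxorubicin VWF was at least 3.26-fold higher and PDGFRB at least 1.11-fold, both against an untreated level that was not detected. The part of these cell types in the SOX values was not tested.

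SOX9, the group E factor that directs cartilage, neural crest and gonad development, was at least 2-fold lower than in untreated cells after doxorubicin and after aclarubicin. Its signal was 1351 after aclarubicin, 1635 after etoposide plus aclarubicin, 513 after doxorubicin and 3609 in untreated cells. The doxorubicin array stood lowest and the untreated array highest, with both aclarubicin arrays between them. The log2 levels were 10.47, 10.92 and 8.29 after aclarubicin, the combination and doxorubicin, and 11.74 in untreated cells. After doxorubicin SOX9 was 10.9-fold lower than in untreated cells, a difference of -3.44 log2, and only 2 of the 9986 genes compared lay lower. In such ranks genes detected on only 1 of the compared arrays stood at their bounds. In the doxorubicin comparison 10.1% of genes were at least 2-fold lower, a background given beside a gene that was chosen on this value. Over the alternative settings this difference ran from -3.44 to -2.81. After aclarubicin SOX9 differed by -1.27, or 2.41-fold lower, where 17.3% of genes were at least 2-fold lower and 1145 of 8987 genes lay below it. After the combination it differed by -0.82, which is short of 2-fold. The size of the aclarubicin differences moved with the scaling: with median scaling over probes detected on all 4 arrays they were -0.57 and 0.06, and without scaling -1.44 and -1.16.

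**Figure D1:**
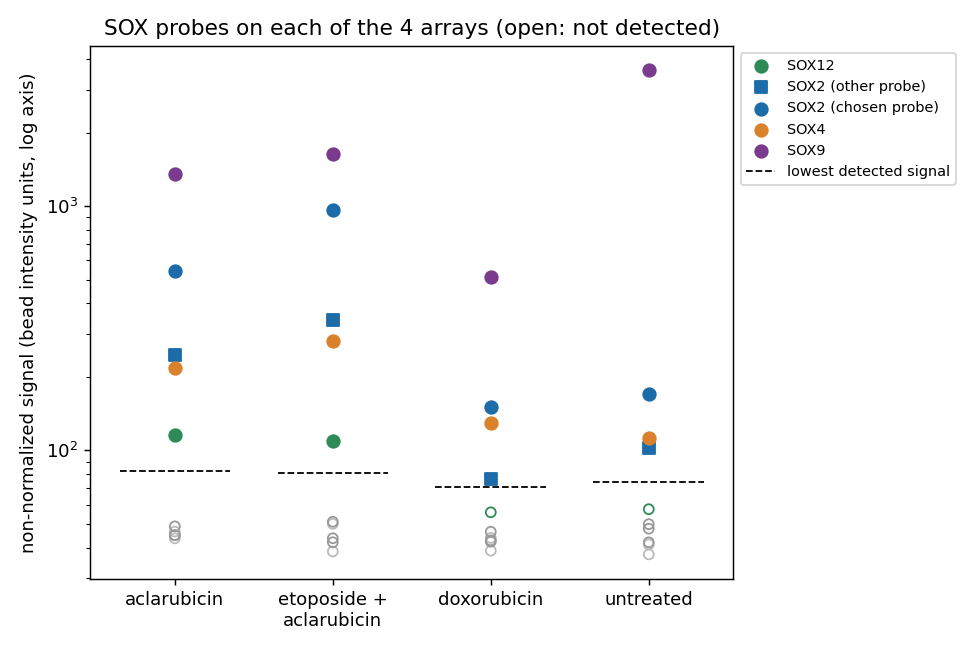
Non-normalized bead signal (log axis) of every probe of the 6 SOX genes on the 4 arrays, filled where detected and open where not; the dashed lines are the lowest detected signal of each array. SOX9 runs between 513 after doxorubicin and 3609 in untreated cells, both SOX2 probes and SOX4 are brighter on the arrays with aclarubicin, and SOX12 is detected on those arrays only.

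SOX2, the group B1 factor of stem and neural progenitor cells, went the other way after aclarubicin. Its chosen probe, the one of higher mean level, had a signal of 541 after aclarubicin, 965 after etoposide plus aclarubicin, 151 after doxorubicin and 170 in untreated cells. The other probe had 245, 343 and 76.5 after the same treatments, and 102 in untreated cells. The arrays with aclarubicin stood above the doxorubicin and untreated arrays on both probes, with the combination highest. The chosen probe was 6.65-fold higher after aclarubicin and 13.5-fold higher after the combination than in untreated cells, differences of 2.73 and 3.76 log2. The other probe gave 2.45 and 3.22. Without scaling the chosen probe differed by 1.87 and 2.74. After aclarubicin 30 of 8987 genes lay above SOX2, and after the combination 15 of 9002. At least 2-fold higher were 16.9% of genes after aclarubicin and 19.5% after the combination. After doxorubicin SOX2 differed by -0.35 on the chosen probe and -0.59 on the other, neither of which reached 2-fold. From the disagreement of probes of the same gene, the SD per probe was 0.32 log2 in that comparison, over 1229 genes for which all 4 arrays detected more than 1 probe. It is the SD of the difference between 2 such probes divided by the square root of 2, so the difference itself spread more widely. That SD covers measurement within arrays and not the spread between cultures, which was not measured. SOX2 lies within an intron of the long non-coding gene SOX2-OT, and the probes assigned to SOX2 were taken as annotated.

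SOX4, a group C factor linked to progenitor survival and to epithelial-mesenchymal transition, was also higher on both arrays with aclarubicin. The signal of its only probe was 217 after aclarubicin, 279 after etoposide plus aclarubicin, 129 after doxorubicin and 113 in untreated cells. The doxorubicin and untreated arrays were close together, and both arrays with aclarubicin lay above them. SOX4 was 4.32-fold higher after aclarubicin and 6.83-fold higher after the combination than in untreated cells, at 2.11 and 2.77 log2, and differed by 0.04 after doxorubicin. Without scaling the differences were 1.19, 1.60 and 0.27, still past 2-fold for both treatments with aclarubicin.

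SOX12, the third group C gene, was detected only on the arrays that received aclarubicin. Its signal was 115 after aclarubicin, 109 after etoposide plus aclarubicin, 55.8 after doxorubicin and 57.4 in untreated cells. The detection p-values were 0.0026, 0.0013, 0.061 and 0.057 in the same order, so the doxorubicin and untreated arrays give only an upper bound. Against the lowest detected level of the untreated array SOX12 was at least 3.22-fold higher after aclarubicin and at least 3.69-fold higher after the combination. The measured levels were 6.94 and 7.14 after these treatments and 4.77 in untreated cells. Without scaling the bounds were 0.96 and 0.85 log2, just under 2-fold. SOX11, the remaining group C gene, had signals of 37.5 to 50 on its 2 probes, and SOX5 signals of 42 to 51 on its 3 probes, which on every array was below the lowest detected signal of 71 to 82.7.

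Counted together, 3 of the 4 members that could be compared exceeded untreated cells by 2-fold or more after aclarubicin and 1 fell short of them by as much, where 34.1% of all genes changed by 2-fold in either direction. After the combination 3 of 4 were higher and 0 lower, against 36.9% of all genes, with 17.4% lower. With median scaling over all probes or no scaling, the counts for aclarubicin and for the combination were each 2 higher and 1 lower. SOX12 dropped out of each, and after the combination SOX9 passed at -1.15 and -1.16. In the authors' normalized values, and with median scaling over probes detected on all 4 arrays, the aclarubicin count was 3 higher and 0 lower. After doxorubicin 0 of 3 were higher and 1 lower, against 21.6%, with 11.6% higher. SOX12 entered the counts for aclarubicin and for the combination only because those arrays detected it. It could not be counted lower there, and it was not compared after doxorubicin. The median of the measured differences was 2.14 after aclarubicin, 2.57 after the combination and -0.35 after doxorubicin, beside the all-gene medians on the quantile scale given above. Both medians with aclarubicin lay between SOX4 and SOX12, whose untreated level of 4.77 was not detected. The doxorubicin median left SOX12 out, so it is over another set of genes. These counts describe genes chosen with the values known and are not evidence of a family-wide change.

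**Figure D2:**
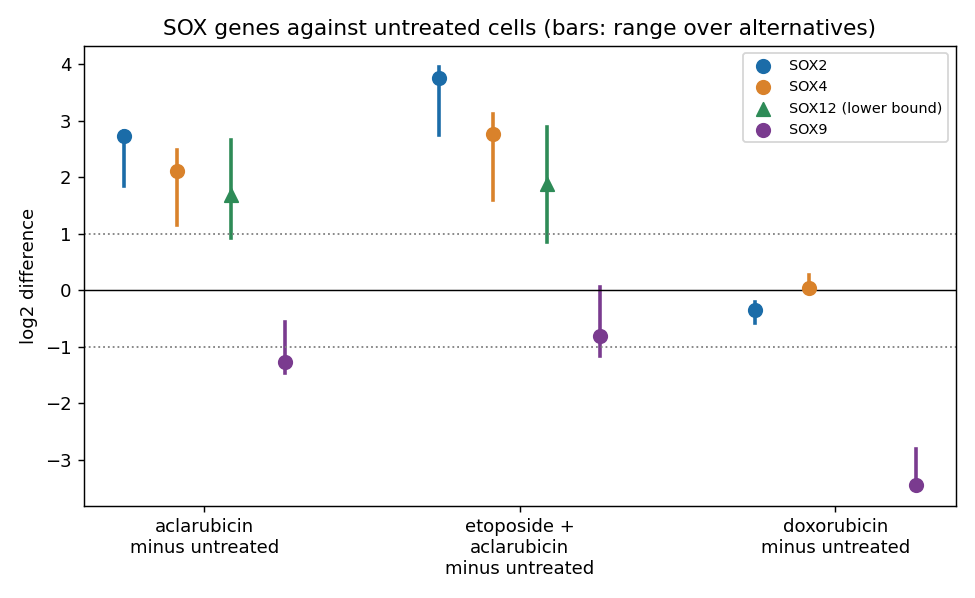
Log2 difference from untreated cells of the detected SOX genes (points, quantile scale) with the range over all alternative settings (bars); dotted lines mark 2-fold and triangles are lower bounds. SOX2 and SOX4 stay above 2-fold under every setting for both treatments with aclarubicin, and SOX9 stays more than 2-fold lower for doxorubicin under every setting.

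**Figure D3:**
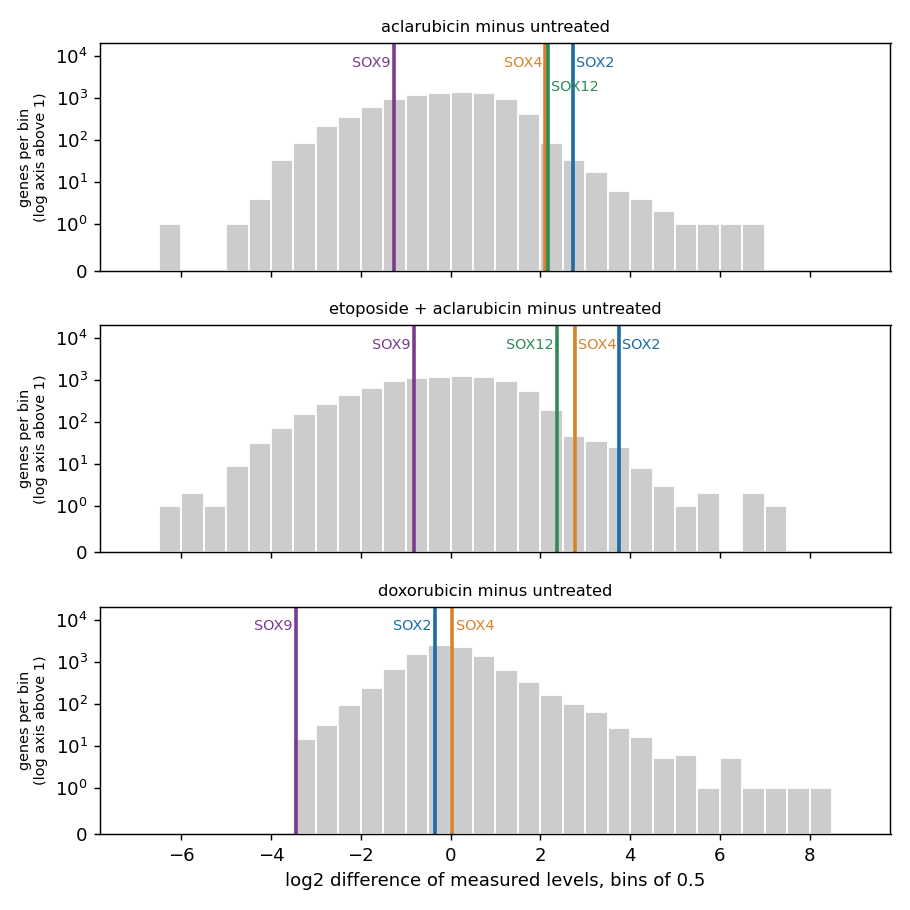
Number of genes (log axis above 1) by log2 difference from untreated cells in bins of 0.5, with the measured difference of each compared SOX gene as a vertical line. SOX9 lies at the lower edge after doxorubicin at -3.44, and SOX2 far up the higher side after aclarubicin at 2.73 and the combination at 3.76.

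Doxorubicin and aclarubicin are both anthracyclines, given here at 9 and 10 µM, doses that differ slightly. Set directly against each other, all 4 compared members were lower on the doxorubicin array, where 36.9% of genes changed by 2-fold in either direction and 18.7% were lower. SOX2 differed by -3.08, SOX4 by -2.07 and SOX9 by -2.17 log2, doxorubicin minus aclarubicin, and SOX12 was at least 3.70-fold lower. Of these 2 arrays only the aclarubicin array detected SOX12, so it could not be counted higher after doxorubicin. SOX9 and SOX2 were thus lower after doxorubicin than after aclarubicin although they lay on opposite sides of the untreated level after aclarubicin. Without scaling SOX4 differed by -0.91, short of 2-fold, and SOX9 by -1.45.

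Etoposide, which traps topoisomerase II on cleaved DNA, was present only together with aclarubicin, so its own effect on these genes was not measured. The combination and aclarubicin alone were the most alike pair of arrays, with 1.41% of 6870 genes at least 2-fold apart. SOX2 was 2.04-fold higher after the combination than after aclarubicin alone, at 1.03 log2, and its other probe differed by 0.77. SOX4 differed by 0.66, SOX9 by 0.45 and SOX12 by 0.20. The SD per probe, from the disagreement of probes of the same gene, was 0.17 here, and how far separate cultures differ was not measured. SOX12 differed by -0.10 without scaling, a turn of sign, while the other 3 kept their direction under every setting. Against doxorubicin, the combination was higher for each of the 4: SOX2 by 4.11, SOX4 by 2.73 and SOX9 by 2.63, with SOX12 at least 4.24-fold higher, where 36.3% of genes changed by 2-fold in either direction and 18.7% were higher. Without scaling the SOX12 bound was 0.94 log2, short of 2-fold. SOX12 was not detected after doxorubicin, so it could not be counted lower after the combination. The 3 comparisons with untreated cells share the untreated array, and those among treatments share treated arrays, so they are not independent of each other.

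The rest of the SOX family was read in the same way. Of 13 further SOX genes on the array, 5 were detected on at least 1 array. SOX3, the group B1 neighbour of SOX2, had signals of 250 after aclarubicin and 294 after the combination, was not detected after doxorubicin or in untreated cells, and was at least 7.90-fold and 11.3-fold higher than in untreated cells. SOX10 signals were 120 after aclarubicin, 90.8 after the combination, 1161 after doxorubicin and 1669 in untreated cells, differences of -3.36, -3.66 and -0.59 log2. SOX9 was lowest after doxorubicin, the treatment after which SOX10 was nearest its untreated level. On the quantile scale SOX9 and SOX10 both lay below untreated cells after every treatment, and both were at least 2-fold lower after aclarubicin. SOX18, a group F factor of endothelium, had signals of 72.5 (not detected), 87.4 and 1105 after aclarubicin, the combination and doxorubicin, and 242 in untreated cells, and was 6.10-fold higher after doxorubicin. SOX13, a group D gene, was detected after doxorubicin, at a signal of 323, and in untreated cells, at 277, but not on the arrays with aclarubicin. SOX6, the group D partner of SOX5, was detected in untreated cells only. Genes detected on only 1 of 2 compared arrays, as SOX3, SOX13 and SOX6 in the aclarubicin comparison, could be counted in 1 direction only. Of the 5 compared, 1 was higher and 2 lower after aclarubicin, and 1 higher and 1 lower after the combination, and of 4 compared after doxorubicin 1 was higher and 0 lower. The shares of all genes higher and lower were 16.9% and 17.3% after aclarubicin, 19.5% and 17.4% after the combination, and 11.6% and 10.1% after doxorubicin.

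**Figure D4:**
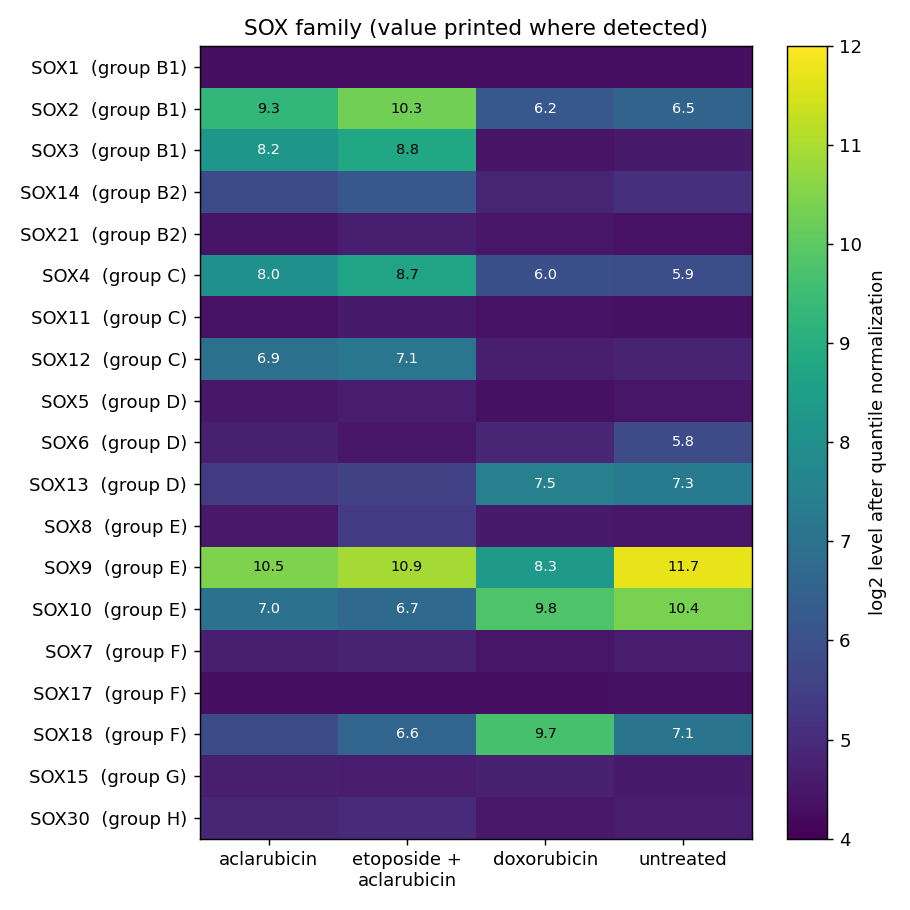
Log2 level after quantile normalization of 19 SOX genes on the 4 arrays, ordered by SOX group, with the value printed where the probe was detected. SOX2, SOX3, SOX4 and SOX12 are brighter on the arrays with aclarubicin, SOX10 and SOX13 dimmer there, SOX9 lowest after doxorubicin and SOX18 highest after it.

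Genes whose profile over the 4 arrays came closest to each member were found among 5946 genes detected on all arrays, by the root mean square difference of log2 levels, each gene centred on its own mean. For SOX9 they were FJX1 at 0.15, PFAS, a purine synthesis enzyme, at 0.29 and TNC, which encodes the matrix protein tenascin C, at 0.31. FJX1 differed from untreated cells by -1.39, -0.91 and -3.18 after aclarubicin, the combination and doxorubicin, beside -1.27, -0.82 and -3.44 for SOX9. For SOX2 they were the small nucleolar RNA SNORD43 at 0.23, the MAX partner MXD1 at 0.24 and the orphan receptor gene NR2F1 at 0.27. For SOX4 they were the replication-dependent histone gene H3C1 at 0.076, the transcription factor gene KLF15 at 0.082 and the growth factor gene BMP4 at 0.084. SOX4 and SOX2 lay 0.53 apart, which made SOX4 the 16th nearest gene to SOX2 and SOX2 the 483rd nearest to SOX4, and SOX9 lay 1.77 from SOX2 and 1.51 from SOX4. With 4 points per profile, these distances are a description of the arrays.

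**Figure D5:**
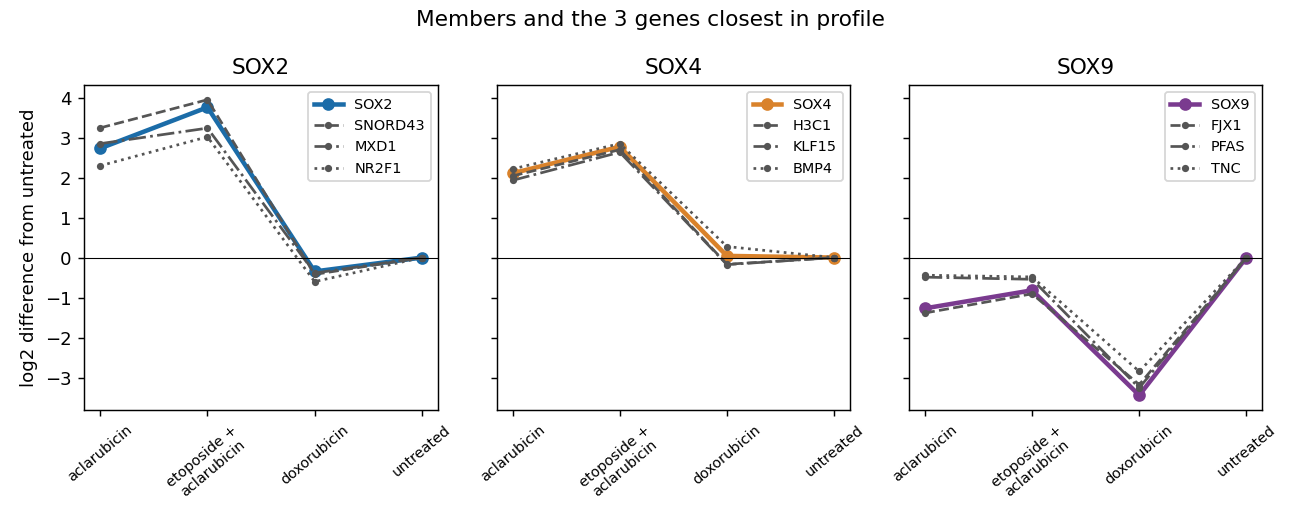
Log2 difference from untreated cells (quantile scale) on each array for SOX2, SOX4 and SOX9, each with the 3 genes of smallest root mean square distance; untreated cells are at 0 by construction. SOX2 and SOX4 are high with aclarubicin and nearer 0 with doxorubicin, at a distance of 0.53 from each other, and SOX9 has its minimum after doxorubicin.

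Genes that act with or downstream of SOX factors were taken from lists chosen with earlier results of these data known, and are described by their counts at 2-fold and medians of measured differences. For these counts, 16.9% of all genes were higher and 17.3% lower after aclarubicin, 19.5% and 17.4% after the combination, and 11.6% and 10.1% after doxorubicin. Of 18 partners and targets of SOX9, most of them cartilage matrix genes, only 5 could be compared after aclarubicin, with 2 higher and 1 lower, and 7 after doxorubicin, with 3 higher and 0 lower. After doxorubicin CDKN1A, the p21 cell cycle inhibitor, was the highest of them at 5.03, and COL9A2, a collagen IX chain, was at least 3.53-fold higher. COL9A2 and the collagen gene COL2A1 were detected after doxorubicin only, so they were compared through that array and could not be counted lower. SOX6, detected in untreated cells only, could not be counted higher. MIA, a secreted melanoma protein first tied to SOX9 in cartilage, differed by 1.73 after aclarubicin, 1.89 after the combination and -0.62 after doxorubicin. Without scaling MIA differed by 0.71, 0.56 and -0.54. CEACAM1, the other gene counted higher with aclarubicin, was at 1.24 and, after the combination, 1.63. Without scaling CEACAM1 was at 0.41 and 0.49, so both genes fell short of 2-fold. PRAME, a tumour antigen, was at -1.05 with aclarubicin alone and at -0.53 with etoposide added. The median was 0.18 after aclarubicin, 0.92 after the combination, with 2 of 5 higher and 0 lower, and 0.83 after doxorubicin. Without scaling it was -0.70, -0.15 and 1.33, so its sign turned for both treatments with aclarubicin. The doxorubicin median on the quantile scale was the difference of COL2A1, taken against an untreated level that was not detected.

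Of 15 partners and targets of the group C factors, 9 were compared in each comparison with untreated cells: 1 was higher and 2 lower after aclarubicin, 1 higher and 1 lower after the combination, and 0 higher and 1 lower after doxorubicin. The aclarubicin count is near the shares of all genes, 16.9% higher and 17.3% lower. The pluripotency factor gene KLF4 was the highest, at 1.90 after aclarubicin, 2.45 after the combination and 0.89 after doxorubicin. Without scaling KLF4 was at 0.90, 1.18 and 0.99. POU3F2, a POU factor that binds DNA beside SOX proteins, was at -1.18 with aclarubicin and at -0.70 with doxorubicin. DICER1, counted lower after both treatments with aclarubicin, was detected in untreated cells but not on those arrays, so it could not be counted higher. The list's medians were -0.26, -0.14 and -0.39. Partners and targets of SOX2 were mostly not detected, with 4 of 14 compared after aclarubicin. KLF4 was higher and the mitotic kinase gene CDK1 lower there, at -1.95, and after doxorubicin MYC was the only one past 2-fold, at -3.23. After the combination 1 was higher and 1 lower. The medians were -0.67, -0.37 and -0.06 after aclarubicin, the combination and doxorubicin.

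Neural crest and plasticity factors, the setting in which SOX9 and SOX10 act, had 1 of 14 higher and 6 lower after aclarubicin, 4 of 15 higher and 5 lower after the combination, and 1 of 15 higher and 4 lower after doxorubicin, with medians of -0.79, -0.74 and -0.52. The matching shares of all genes were 16.9% higher and 17.3% lower, 19.5% and 17.4%, and 11.6% and 10.1%. The homeobox gene MSX1 was the highest in each, at 2.61, 3.0 and 2.06. SNAI2, also counted higher after the combination at 1.33, differed by -0.06 without scaling. SNAI1 and FOXD3 were detected after the combination but not in untreated cells, so they could not be counted lower there. ZEB2 and MITF were detected in untreated cells but not after the combination, so they could not be counted higher. The lowest after aclarubicin was TFAP2C, an AP-2 factor, at -2.24. ZEB2, a repressor of E-cadherin, was at -1.60 with aclarubicin alone and at -2.31 with doxorubicin, and at least 3.80-fold lower after the combination. Of 16 genes of SOX protein turnover, modification and import, 10 were compared: 1 was higher and 6 lower after aclarubicin, 1 higher and 4 lower after the combination, and 1 higher and 3 lower after doxorubicin, with medians of -1.89, -2.35 and -0.37. TRIM33, a ubiquitin ligase, was at -3.13 with aclarubicin alone and at -1.51 with doxorubicin, and at least 9.66-fold lower after the combination. FBXW7, the ubiquitin ligase subunit that recognises SOX9, was the highest of these after doxorubicin at 1.43. KPNB1, an importin that carries SOX9 into the nucleus, differed by -2.66 after the combination and -1.15 after doxorubicin. Most of the 10 compared, FBXW7, GSK3B and EP300 among them, were detected in untreated cells but on neither array with aclarubicin. Such genes could not be counted higher there, and the same held for TRIM33 after the combination. Both medians of this list with aclarubicin fell between genes not detected on those arrays, so their size rests on undetected levels. Of 22 upstream regulators, 18 were compared, with 3 higher and 5 lower after aclarubicin, 3 higher and 6 lower after the combination and 3 higher and 1 lower after doxorubicin. Their medians were -0.53, -0.46 and -0.09. Several of them, GLI2 among them, were detected in untreated cells but on neither array with aclarubicin, so these could not be counted higher there. The same held for NOTCH1 after aclarubicin alone. AXIN2, a feedback target of Wnt signalling, was at 2.32 with aclarubicin alone and at 3.15 with etoposide added, and HEY1, a Notch target, at 1.80 and 2.48. Without scaling AXIN2 was at 1.55 and 2.14, and HEY1 at 0.79 and 1.23. DKK1, a secreted Wnt inhibitor, was the lowest of the list after both treatments with aclarubicin, at -6.06 and -5.98. After doxorubicin DKK1 was at -0.54. SMAD4, the shared SMAD of TGF-beta signalling, was at -2.52 with aclarubicin alone, and the receptor gene TGFBR2 at -2.09 after the combination. After doxorubicin NOTCH1 was the highest at 1.87 and LEF1, a Wnt effector, the lowest at -1.38.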

How the data were processed

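MelJuSo RNA was hybridised to 1-colour Illumina beadchips, 1 array per group. The authors deposited non-normalized intensity values, lowest 30.1, and a detection p-value per probe, per the file headers. The authors' normalized table, named for lumi in the submitters' processing notes with no version, lies near log2 of the signal for bright probes; its scale and centring stay unknown (column medians 2.18, 2.12, 2.30 and 2.28 for aclarubicin, the combination, doxorubicin and untreated), and it served as an alternative only. Intensities were corrected by normexp (limma 3.58.1, R 4.3.3) its background estimated through the detection p-values, with 16 added before quantile normalization and log2. The offset shrinks differences of dim genes. Of 48803 probes, 27578 had 1 symbol, 13 several and 21212 none; 27541 matched a current gene table (GRCh38.p14) and 0 symbols changed. A gene was represented by its detected probe of highest mean level. Genes detected on at least 1 of the 2 arrays were compared, with 2-fold as the threshold. Where only 1 array detected a gene, the fold is a bound taken against the dim array, at whichever was greater of its lowest detected level or that probe, and the same bound decided the counts. Medians used measured levels. Members and lists were chosen with earlier results of these data known. Named genes are all members, the other SOX genes by detection, up to 2 highest and 2 lowest of each list per comparison and the 3 nearest profiles. The calling was tested on simulated data. Alternatives changed the background correction, scaling, offset, detection threshold, probe rule and fold threshold. Python 3.11.15 with numpy 2.4.6 and pandas 2.3.3 was used. The number of arrays limits the precision.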

Additional observations from a re-analysis of the deposited data

How the results depend on the processing

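The number of members at least 2-fold changed stayed within 1.5 times of the reported count under the alternatives in each comparison except etoposide plus aclarubicin minus aclarubicin. There 1 member (SOX2) passed, against 0 with no background correction, median scaling over all probes, no scaling, the authors' normalized values, an offset of 50, the mean over detected probes and a 3-fold threshold, and 2 with a 1.5-fold threshold; the cause was not tested. No member's difference past 2-fold changed sign under the alternatives, which were run for the members only. After the combination minus untreated the number stayed at 3 with median scaling over all probes and no scaling, but SOX9 took the place of SOX12. SOX12 after the combination minus doxorubicin was past 2-fold under 7 of 9 alternatives. SOX9 after the combination, at -0.82, was 0.06 with median scaling over probes detected on all arrays, which was chosen after seeing the data, as was the other SOX2 probe. SOX9 after aclarubicin was past 2-fold under 7 of 9 alternatives, and SOX12 after either treatment with aclarubicin under 7 of 9. SOX2 and SOX4 after these treatments were past 2-fold under every alternative, 10 for SOX2 and 9 for SOX4. In the authors' normalized values, SOX9 after aclarubicin did not reach 2-fold. No paired analysis was possible because each group has 1 array, and for the same reason no replicate could be left out. Signals near the lowest detected one, as for SOX12 and the other SOX2 probe after doxorubicin, limit what can be read.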

Other observations

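The SOX family was also split by gene structure, a split looked at after the values were seen and taken from textbook gene models. Of 8 single-exon SOX genes, 4 were detected on either array (SOX2, SOX3, SOX4 and SOX12), and each exceeded untreated cells by 2-fold or more after aclarubicin and after the combination, where 16.9% and 19.5% of all genes were higher. The other 4, SOX1, SOX11, SOX14 and SOX21, were not detected on any array. Of 11 SOX genes with introns, 5 were compared, with 0 higher and 3 lower (SOX9, SOX10 and SOX13) after aclarubicin and 0 higher and 1 lower (SOX10) after the combination. After doxorubicin 2 single-exon genes were compared, with 0 higher and 0 lower, while SOX18 was higher and SOX9 lower among the 5 with introns. Detection set part of this split. SOX3 and SOX12 were compared with untreated cells only because the arrays with aclarubicin detected them, so neither could be counted lower. SOX13 and SOX6 were detected in untreated cells but not on the arrays with aclarubicin, so neither could be counted higher there. The same held for SOX18 after aclarubicin alone. Without scaling, the bound for SOX12 was under 2-fold after aclarubicin, at 0.96, and after the combination, at 0.85. The lower shares of all genes were 17.3% and 17.4%, and after doxorubicin 11.6% were higher and 10.1% lower.

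CD14, a monocyte marker, was the only listed leukocyte marker detected: its signal was 390 after aclarubicin, 336 after the combination and 74.3 after doxorubicin, and 57.2 in untreated cells, where it was not detected. Against untreated cells CD14 was at least 12.2-fold higher after aclarubicin and at least 12.9-fold higher after the combination. PTPRC, the pan-leukocyte gene, was not detected on any array.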
